A study of Mus musculus with 4 samples.

Results

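H3K27me3 peaks that the authors' table placed more than 50 kb from their paired gene were examined in mouse erythro-myeloid progenitors (EMPs). These far peaks were chosen by position, width and distance as the peaks of the 15000-EMP library on chromosomes 1 to 19 that were at most 5000 bp wide, lay upstream or downstream of a gene, and had a distance above 50000 bp in every row of the annotated table. The rule kept 1568 of the 15282 peaks of that library, or 10.3%. The values that chose the members are given below as descriptions. The readout of the 500-EMP library, the DNA sequence and the gene models of GENCODE and RefSeq were not used by the rule.

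The series profiled E10.5 yolk sac EMPs by CUT&RUN, in which an antibody-tethered nuclease cuts around the chromatin mark and the released DNA is sequenced. An H3K27me3 and an IgG library were made from 500 EMPs and from 15000 EMPs, giving 4 groups of 1 library each. All 4 libraries carried the same labels, strain C57BL/6 and genotype "Ezh2fl/fl; Tie2-Cre+/+ Wild type", which sets floxed and Cre notation beside the words wild type, and which the study treats as wild type. Tie2-Cre acts in endothelium and in the blood cells that arise from it. The 500-EMP libraries had 17 PCR cycles and 76 bp reads and the 15000-EMP libraries 16 cycles and 59 bp reads. The study's reporting summary gives far fewer aligned reads for 500 EMPs, and the authors called peaks at p-value cutoffs of 0.01 (500 EMPs) and 0.05 (15000 EMPs). Cell number, depth, amplification, read length, instrument and cutoff therefore cannot be told apart. The files used here held peak positions alone, with no score and no read count, so depth could not be read from them and no spread between replicates or p-value could be given. Per the authors' command listing the IgG libraries served as the control in peak calling. They had no peak list among the files used here, and no background rate of peaks could be measured.

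H3K27me3 is the mark that Polycomb repressive complex 2, with Ezh2 as its catalytic subunit, places on histone H3 at silent genes. In mammals the complex is found mainly at CpG-rich stretches, above all at the starts of developmental regulators that are off in a given lineage. The mark can also spread over neighbouring chromatin, and it covers distal regulatory elements and gene deserts around such regulators.

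The stretches of sequence printed next show the range of DNA under the far peaks. They were chosen for CpG content and position, 300 bp each, and are printed from the RefSeq copy of GRCm38 (mm10) on the plus strand with every CG dinucleotide in capitals. The first came from the far peak with the most CpG among those holding a CpG island window and overlapped by a 500-EMP peak, chr13:3356367-3361008, which overlapped the long non-coding gene Gm48530 and the transcribed pseudogene Gm16505. The second came from the matching peak that no 500-EMP peak overlapped, chr15:30645567-30648478, which touched an exon of Ctnnd2, a catenin of neuronal junctions. The third lay in the widest peak of the largest cluster, chr7:96604124-96607712 inside Tenm4, and the fourth in the peak with the largest distance, chr4:76450792-76452618 inside Ptprd. In each case the window richest in CpG that touched no annotated untranslated region was taken.
chr13:3358347-3358646 (Gm16505 and Gm48530, 36 CpG): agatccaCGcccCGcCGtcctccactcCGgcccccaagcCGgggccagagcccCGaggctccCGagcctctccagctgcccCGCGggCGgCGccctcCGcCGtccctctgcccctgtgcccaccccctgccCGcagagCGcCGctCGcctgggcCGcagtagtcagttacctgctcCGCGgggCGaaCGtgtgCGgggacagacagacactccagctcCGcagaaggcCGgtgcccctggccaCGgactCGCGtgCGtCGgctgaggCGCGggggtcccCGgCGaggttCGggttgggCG
chr15:30646893-30647192 (Ctnnd2, 38 CpG): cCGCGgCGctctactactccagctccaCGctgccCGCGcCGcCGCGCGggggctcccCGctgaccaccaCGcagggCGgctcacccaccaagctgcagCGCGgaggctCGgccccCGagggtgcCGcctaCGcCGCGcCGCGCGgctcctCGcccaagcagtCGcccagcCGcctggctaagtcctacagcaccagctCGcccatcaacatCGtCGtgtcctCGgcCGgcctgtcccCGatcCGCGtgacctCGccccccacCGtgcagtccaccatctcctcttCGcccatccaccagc
chr7:96607375-96607674 (Tenm4, 6 CpG): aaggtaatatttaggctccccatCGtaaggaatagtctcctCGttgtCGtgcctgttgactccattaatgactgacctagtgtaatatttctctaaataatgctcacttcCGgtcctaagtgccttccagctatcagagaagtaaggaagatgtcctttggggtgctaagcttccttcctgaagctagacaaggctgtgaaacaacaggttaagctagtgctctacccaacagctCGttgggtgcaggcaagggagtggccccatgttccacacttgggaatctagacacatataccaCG
chr4:76450792-76451091 (Ptprd, 9 CpG): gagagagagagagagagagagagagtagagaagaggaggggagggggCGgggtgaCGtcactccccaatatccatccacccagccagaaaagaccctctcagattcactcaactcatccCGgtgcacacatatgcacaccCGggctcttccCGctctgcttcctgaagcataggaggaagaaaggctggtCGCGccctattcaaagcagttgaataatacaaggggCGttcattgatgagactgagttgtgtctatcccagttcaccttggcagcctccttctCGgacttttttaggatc
The first pair is G+C-rich, with 76.0% and 73.7% G+C, whereas the Tenm4 window has 47.0% and the Ptprd window 53.0%.

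Far peaks were mostly short. Their width had a median of 561 bp (interquartile range 319 to 1164, full range 171 to 4913), and 44.8% were under 500 bp. Together they covered 1.47 Mb, or 6.12% of the 24.0 Mb under all peaks of the library. The distance column had a median of 92953 bp and ran from 50028 to 1172487 bp. It lay between 50 and 100 kb for 852 far peaks, between 100 and 200 kb for 474 and above 200 kb for 242. Of the 1568 peaks, 894 were upstream and 674 downstream of the paired gene. Chromosomes 7 and 8 held the most, 144 each, and chromosome 15 the fewest, 24. As a share of a chromosome's peaks of at most 5000 bp, chromosome 13 led with 18.8%. Chromosome 8 had 18.4%, chromosome 7 had 13.4% and chromosome 15 had 3.52%.

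The distance column did not place all these peaks far from genes. By GENCODE vM21, 566 far peaks (36.1%) overlapped a protein-coding gene, 148 (9.44%) a long non-coding gene and 28 another gene, which left 826 (52.7%) in no gene. RefSeq placed 517 (33.0%) in 153 protein-coding genes, 494 of them shared with GENCODE, and 979 far peaks were in a protein-coding gene of neither annotation. Part of the GENCODE figure came from 2 very long models, since 66 peaks lay in Gm20388, a model of 4434882 bp, and 9 in Fgfr2, which spans 2960900 bp in GENCODE. Without both models the share was 31.3%. Of the 566 peaks in GENCODE protein-coding genes, 374 (66.1%) had a host gene that the authors' tables name elsewhere, paired with other peaks. The share of all protein-coding genes so named was not measured, so this is a description of the pairing alone. The hosts with the most far peaks in RefSeq were Tenm4 with 41, a teneurin of neuronal adhesion, Frmd4a with 21, a scaffold of epithelial polarity, Eml1 with 18, a microtubule-binding protein, Tead1 with 17, a transcription factor of the Hippo pathway, and Nfia with 15, a transcription factor of glial development.

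The start of a GENCODE protein-coding gene, taken as the end of the whole gene model, lay within 50 kb of 67 far peaks (4.27%). By the starts of single transcripts the picture was different: 332 far peaks had a protein-coding transcript start within 50 kb, 148 (9.44%, 95% Wilson interval 8.09 to 11.0) had one within 3 kb, and 36 lay across a start. Only transcripts that GENCODE labels protein-coding were counted here, so a gene start set by another transcript was not. The widest of these, chr7:130261180-130265870, was 4691 bp wide and crossed a start of Fgfr2, a fibroblast growth factor receptor, while the table paired it with Ate1 at 125622 bp. Peaks across transcript starts of Frmd4a (4645 bp), Atp2b2 (3858 bp), a calcium pump, and Cacna1c (3583 bp), a calcium channel subunit, were likewise paired with other genes. These 4 wide peaks were overlapped by a 500-EMP peak, but of the 148 peaks within 3 kb of a transcript start 44 (29.7%) were, which at equal width differed from other far peaks by 1.87 percentage points (95% interval -3.01 to 6.76). Below, far peak means a peak far from its gene by the distance column, and not a peak away from every gene.

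Few far peaks appeared in the 500-EMP list. A 500-EMP peak overlapped 334 of 1568 by at least 1 bp, or 21.3% (95% Wilson interval 19.3 to 23.4, which covers counting error only and treats neighbours as independent). Among all 14093 peaks of at most 5000 bp on these chromosomes 28.3% were overlapped. Width went with overlap: 3.85% of far peaks under 500 bp were overlapped (27 of 702), 14.3% of those from 500 to under 1000 bp (60 of 419), 41.6% from 1000 to under 2000 bp (102 of 245) and 71.8% from 2000 to 5000 bp (145 of 202). The median width was 1741 bp for overlapped and 459.5 bp for the other 1234 far peaks.

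**Figure D1:**
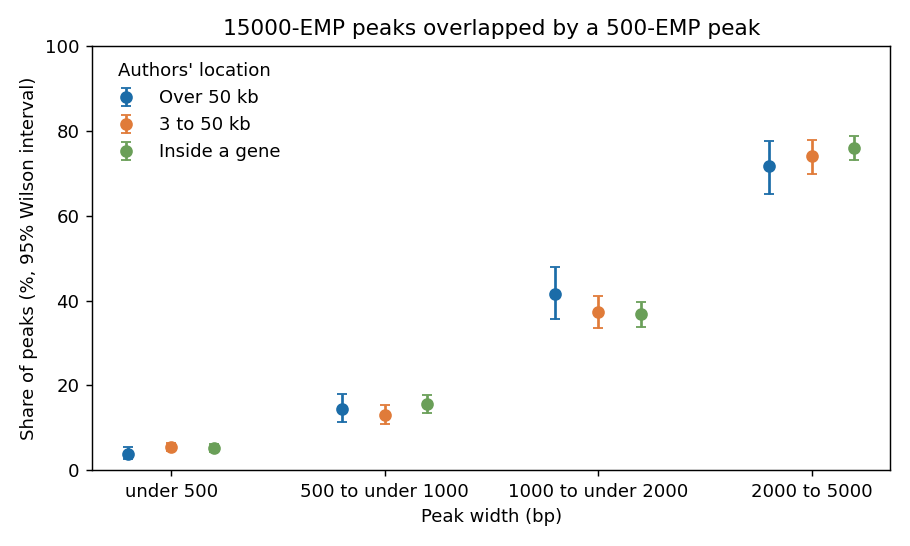
Share of 15000-EMP peaks overlapped by a 500-EMP peak (y axis, percent, with 95% Wilson intervals) against peak width class (x axis, bp) for far peaks, peaks 3 to 50 kb from a gene and peaks inside a gene, as the authors' table places them. The share of far peaks goes from 3.85% under 500 bp to 71.8% at 2000 to 5000 bp, and the intervals of the 3 sets overlap in each class.

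At equal width, the interval of the difference between far peaks and nearer peaks held 0. The crude share was 21.0% among 3759 peaks that the table placed 3 to 50 kb from a gene and 26.0% among 4989 peaks inside a gene. With the width classes of the far peaks applied to both, far peaks differed from the 3 to 50 kb set by 0.056 percentage points (95% interval -1.94 to 2.05) and from the set inside genes by -0.714 (-2.62 to 1.20). When each cluster of neighbouring peaks counted once by its widest peak, the differences were -2.42 (-5.70 to 0.868) and -3.68 (-6.77 to -0.589), so the second interval no longer held 0. Far peaks inside a GENCODE protein-coding gene were overlapped in 21.4% of cases (121 of 566) and those in no gene in 20.8% (172 of 826). By distance the share was 21.8% between 50 and 100 kb, 22.2% between 100 and 200 kb and 17.8% above 200 kb, with intervals that overlap.

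Overlap was mostly partial. The 500-EMP peaks covered 11.1% of the bases under far peaks, the median coverage of an overlapped far peak was 20.6%, and 45 far peaks (2.87%) were covered over at least 50% of their length. In 77 far peaks lay 2 or more separate 500-EMP peaks, at most 5. The widest far peak, chr16:29729653-29734565 between Opa1, a mitochondrial fusion gene, and Hes1, a Notch target, was 4913 bp wide and held 2 pieces covering 581 bp. The third widest, chr13:98503653-98508544, was 4892 bp wide and held 5 pieces covering 2749 bp. The remaining peaks of the widest 5 lay upstream of Tbca (4893 bp), upstream of Nkd1, a Wnt antagonist (4877 bp), and at the Fgfr2 start already described, and each was overlapped.

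Wide far peaks without any 500-EMP peak were also seen, and 57 of the 202 far peaks of 2000 to 5000 bp were of this kind. In this width class 71.8% of far peaks were overlapped. The share was 74.0% at 3 to 50 kb (347 of 469) and 76.0% inside a gene (653 of 859), with intervals that overlap. The widest was chr18:76541860-76545934, 4075 bp in the interval between Smad2 and Skor2. The next were chr15:100982261-100986314 in the sodium channel gene Scn8a (4054 bp), chr8:88436677-88440606 between Brd7 and Nkd1 (3930 bp), chr4:117315177-117318864 in Rnf220 (3688 bp) and chr2:179765581-179769263 in the cadherin gene Cdh4 (3683 bp). All 5 held a CpG island window.

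Seen from the 500-EMP list, 687 of its own peaks met the same rule. Of these, 546 (79.5%, 95% Wilson interval 76.3 to 82.3) overlapped any 15000-EMP peak, against 92.1% of all 9965 peaks of that list with the same width limit and chromosomes. A far peak of the 15000-EMP library was overlapped by 422 500-EMP peaks in all.

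Far peaks came in runs. Chained at gaps of up to 10 kb, the 1568 peaks formed 591 units: 315 clusters of 2 or more with 1292 peaks (82.4%), and 276 single peaks. There were 150 pairs, 69 clusters of 5 or more with 674 peaks, and 27 clusters of 10 or more with 403 peaks. In 20 of the 69 larger clusters every peak lay inside a RefSeq protein-coding gene. The broad peak calling that MACS2 offers merges nearby enriched intervals, and whether a cluster would become 1 domain under another setting was not tested.

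The largest cluster lay in the body of Tenm4 (chr7:96562408-96620004), where 30 far peaks covered 40.0% of 57597 bp. None of the 30 held a CpG island window, and 2 were overlapped by a 500-EMP peak. The table paired most of them with the non-coding gene Gm15413. The second, of 23 peaks, lay at chr8:121293172-121344124 in the Gm20388 model, at 162528 to 203947 bp from the paired genes. Foxl1, a forkhead factor of gut mesenchyme, was the paired gene and the nearest protein-coding start of all but the last peaks at the right end, which were paired with 1700018B08Rik. Here 4 peaks were overlapped and 6 held a CpG island window. The third, of 22 peaks, lay at chr1:190468977-190510297 between Prox1, the regulator of lymphatic endothelial identity, and Rps6kc1. Its peaks were 298263 bp or more from the Prox1 start, and 4 were overlapped.

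The next 5 clusters held 17 to 21 far peaks each. Of 21 peaks between Tbx5, a heart and forelimb factor, and Rbm19 at chr5:119993600-120037476, 6 were overlapped. Of 19 peaks between Hnrnpk, an RNA-binding protein gene, and Slc28a3 at chr13:58459724-58502134, 9 were, and a domain of 9267 bp lay among them. In the body of Eml1, upstream of Evl (chr12:108463897-108504691), 5 of 18 were overlapped. In the body of Tead1, upstream of Rassf10 (chr7:112837661-112881442), 5 of 17 were, and between Hif1an and the kidney factor Pax2 (chr19:44637796-44678449) 8 of 17. The 500-EMP list held 5 peaks covering 1854 bp within the Tenm4 span and 12 peaks covering 8649 bp within the span beside Pax2. The latter span also held a domain of 5041 bp that is no far peak, with 5 of the 500-EMP peaks and 2042 bp of their coverage, whereas the Tenm4 span held no such domain.

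**Figure D2:**
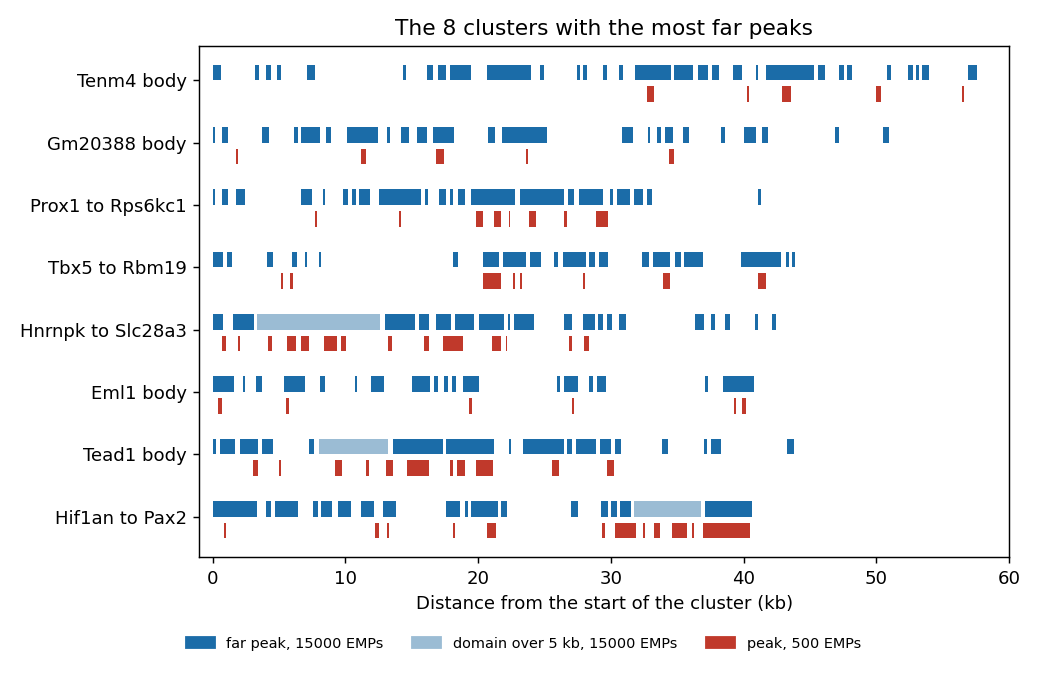
Positions of peaks in the 8 clusters with the most far peaks, drawn to scale as distance in kb from the first base of each cluster (x axis), with 1 line of 15000-EMP peaks (dark blue: far peaks; pale blue: domains over 5 kb, which are no members) and 1 line of 500-EMP peaks (red) per cluster. The Tenm4 cluster has 30 far peaks and 5 narrow 500-EMP peaks, and the Hif1an to Pax2 cluster has 17 far peaks and 12 500-EMP peaks.

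Counted by peak, far peaks in larger clusters were overlapped more often than single ones and held CpG island windows less often. A 500-EMP peak overlapped 12.3% of single far peaks (34 of 276), 21.8% of those in clusters of 2 to 4 (135 of 618) and 24.5% of those in clusters of 5 or more (165 of 674). At equal width the difference between clusters of 5 or more and single peaks was 14.1 percentage points (95% interval 10.1 to 18.2). Peaks of a cluster are not independent. With 1 peak per cluster, the widest, the difference was 20.5 points with a wide interval (0.145 to 40.9). Few clusters of 5 or more had a widest peak under 1000 bp (443, 784 and 954 bp). The narrow width classes thus rest on few clusters, and this value cannot decide whether the contrast holds per cluster. At least 1 peak was overlapped in 57 of the 69 clusters of 5 or more (82.6%) and in 157 of all 315 clusters (49.8%). A cluster with more peaks has more chances to hold an overlapped one, so these shares do not compare cluster sizes. Near a domain over 5 kb wide, within 10 kb, lay 109 far peaks, of which 33.0% were overlapped against 20.4% of the others. At equal width that difference was 5.41 points with an interval that held 0 (-1.54 to 12.4).

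**Figure D3:**
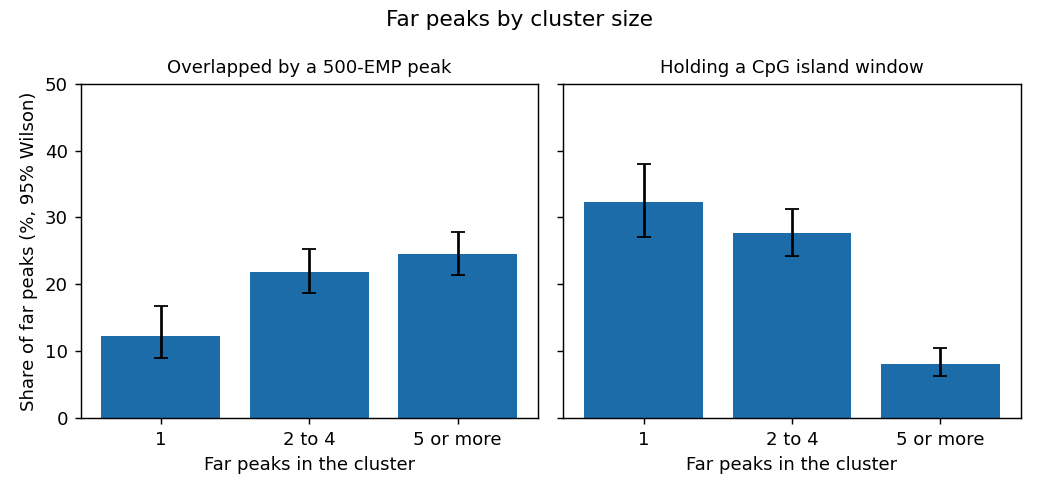
Share of far peaks (y axis, percent, with 95% Wilson intervals) that a 500-EMP peak overlaps (left) and that hold a CpG island window (right), by the number of far peaks in the cluster (x axis). Overlap goes from 12.3% of single peaks to 24.5% in clusters of 5 or more, and CpG island windows go from 32.2% to 8.16%.

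A CpG island window, taken as 200 bp with at least 50% G+C and an observed over expected CpG ratio of at least 0.6, was found in 315 far peaks, or 20.1% (95% Wilson interval 18.2 to 22.1). With a stricter window of 500 bp, 55% G+C and a ratio of 0.65 the share was 5.68% (4.64 to 6.93). The 200 bp window was found in 34.7% of all 14093 peaks of the same chromosomes and width limit. At equal width far peaks differed from peaks 3 to 50 kb from a gene by -1.35 percentage points (-3.40 to 0.711) and from peaks inside a gene by -9.25 (-11.3 to -7.22). Among far peaks, those in a GENCODE protein-coding gene held an island window more often than those in no gene, by 6.11 points at equal width (2.33 to 9.89). Within 3 kb of a protein-coding transcript start 63 of 148 (42.6%) did, 18.1 points more than other far peaks at equal width (11.2 to 25.0). Single far peaks held an island window in 32.2% of cases, those in clusters of 2 to 4 in 27.7% and those in clusters of 5 or more in 8.16%, and the difference between the first and last was 22.0 points at equal width (17.0 to 27.1). These shares count peaks and treat neighbours as independent. Many clusters of 5 or more did hold such a peak, and the share of clusters with one was not compared with single peaks.

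The interval of the difference in overlap with and without a CpG island window held 0 once width was equal. Of far peaks with an island window 44.4% were overlapped and of those without 15.5%, but the former were wider, with median widths of 1694 and 471 bp. At equal width the difference was -0.205 points (-5.15 to 4.74). It was -5.47 (-11.9 to 0.942) at a distance limit of 100 kb, -4.83 (-11.5 to 1.88) where a 500-EMP peak within 1 kb counted, and 4.40 (-11.4 to 20.2) with the stricter window, so its sign and size were not settled. In the widest class 71.8% of both were overlapped, 94 of 131 and 51 of 71.

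**Figure D4:**
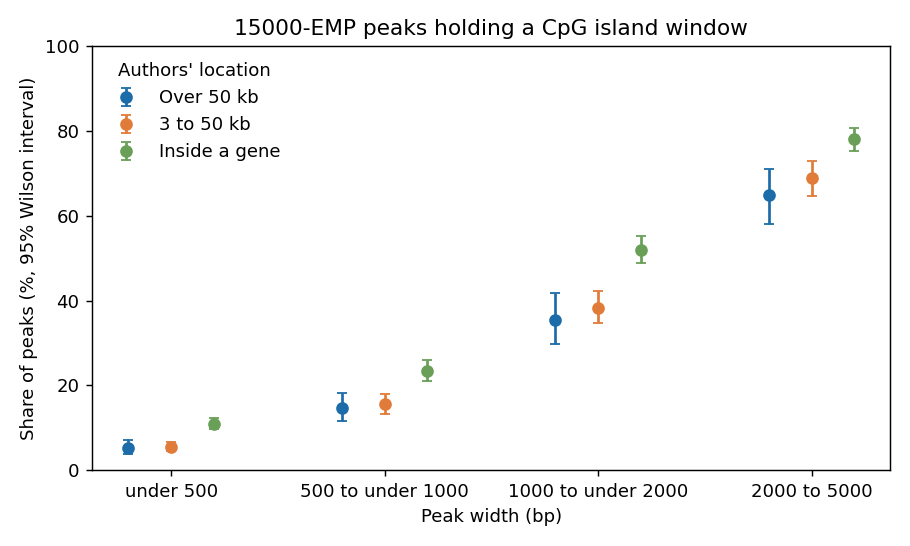
Share of 15000-EMP peaks that hold a CpG island window (y axis, percent, with 95% Wilson intervals) against peak width class (x axis, bp) for far peaks, peaks 3 to 50 kb from a gene and peaks inside a gene. Far peaks go from 5.13% under 500 bp to 64.9% at 2000 to 5000 bp, and peaks inside a gene lie above them in every class.

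Few far peaks had a second copy in the genome. A second copy over at least 50% of the length at 90% identity was found for 51 far peaks (3.25%), against 5.11% of peaks 3 to 50 kb from a gene and 1.98% of those inside a gene. Repeats masked over 50% of the length of 73 far peaks (4.66%), against 8.22% and 3.37%. Leaving out far peaks of either kind gave an overlapped share of 21.8%.

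The authors' table spread the far peaks over 478 genes, 195 of which had a single far peak. The leading gene was Gm15413 with 36, all inside Tenm4, of which 4 were overlapped by a 500-EMP peak. Foxl1 followed with 35, of which 10 were overlapped. Gm29678 had 24, all with Prox1 as the nearest protein-coding start. Nr2f2, which sets venous endothelial identity, had 21 at 147367 to 657576 bp, of which 4 were overlapped. Rbm19, a ribosome biogenesis gene, had 21, Hnrnpk 19, Evl, an actin regulator, 18 and Rassf10 17. The genes 1700080N15Rik, whose peaks lay in Frmd4a, 4933406K04Rik and Mtx3 had 16 each. E130114P18Rik, with peaks in Nfia, had 15. Plxna4, a semaphorin receptor, and Trmt9b, with peaks in the RhoGAP gene Dlc1, had 14 each, and the chemokine gene Cxcl12 had 13. In 6 of these 15 the far peaks all lay inside another GENCODE protein-coding gene that RefSeq also places there, namely Tenm4, Eml1, Tead1, Frmd4a, Nfia and Dlc1.

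**Figure D5:**
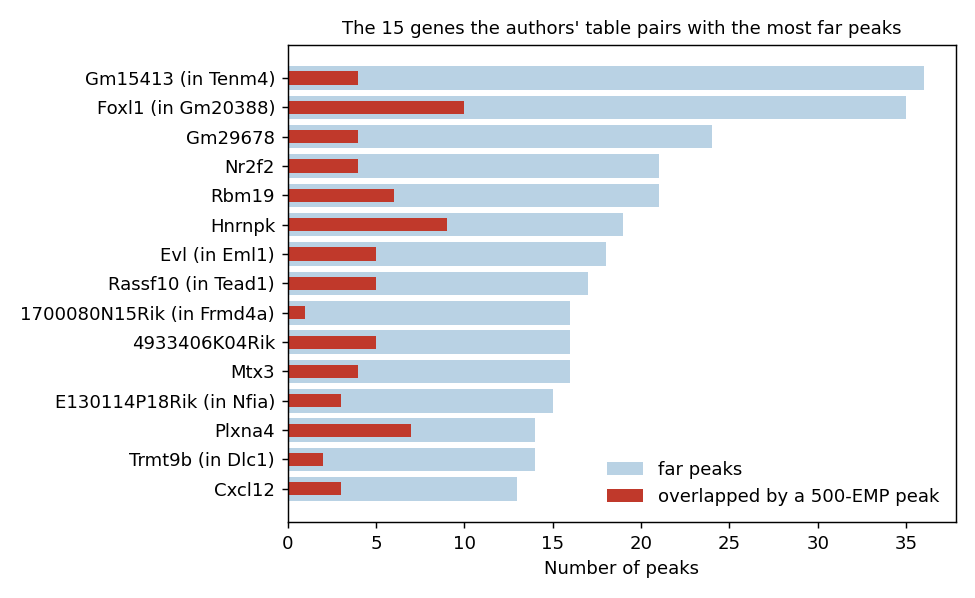
Number of far peaks (x axis, pale bars) and of those overlapped by a 500-EMP peak (red bars) for the 15 genes that the authors' table pairs with the most far peaks (y axis, with the GENCODE protein-coding gene that holds the peaks in brackets). Gm15413 has 36 far peaks with 4 overlapped, and Plxna4 has 14 with 7 overlapped.

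By the nearest GENCODE protein-coding start the far peaks fell to 461 genes, and for 952 far peaks this was the gene the table named. A 15000-EMP peak lay within 3 kb of that start for 746 far peaks, or 47.6% (95% Wilson interval 45.1 to 50.1). Among far peaks and the other 2 sets together 71.5% had such a start, with 61.8% at 3 to 50 kb and 86.3% inside genes. Among all 20807 protein-coding genes 17.5% had a peak within 3 kb of the start. A peak inside a gene can itself be the peak within 3 kb of the start, its median distance to a protein-coding start being 4290 bp, whereas only 25 far peaks lay that close. These shares come from the list that chose the far peaks, and are given as a description from which no difference between the sets is read.

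Developmental transcription factors, a list of homeobox, forkhead, Sox, T-box and similar families, were the nearest start of 259 far peaks, or 16.5% (14.8 to 18.4). The share was 12.0% over far peaks and the other 2 sets together, 17.1% at 3 to 50 kb and 6.71% inside genes. At equal width far peaks differed from the 3 to 50 kb set by -0.559 points (-2.76 to 1.64). The list makes up 1.90% of protein-coding genes. The 259 peaks belonged to 59 factors, of which 56 had a 15000-EMP peak within 3 kb of the start, against 192 of all 461 nearest genes. A 500-EMP peak overlapped 55 of the 259 (21.2%), near the 21.3% of all far peaks, and 31 of the 59 factors had no far peak overlapped, against 283 of the 461 genes. Foxl1 (35), Prox1 (24) and Nr2f2 (20) held 79 of the 259. Next came Lhx5 with 13 and Irx3 with 10, both of neural patterning, Six3 with 9, a forebrain and eye factor, and Foxf1, Lmx1b and Tfap2c with 8 each. By factor, 10 of 35 were overlapped at Foxl1, 4 of 24 at Prox1, 4 of 20 at Nr2f2, 3 of 13 at Lhx5, 1 of 10 at Irx3, 5 of 9 at Six3, 1 of 8 at Foxf1, 2 of 8 at Tfap2c and 0 of 8 at Lmx1b. Widths differed among these genes, with 14579 bp covered by the 8 peaks of the Six3 cluster and 5150 bp by the 8 of the Lmx1b cluster, and differences between them were not tested.

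Genes of blood and vessel lineages were the nearest start of a small part of the far peaks, through a handful of genes. The endothelial list had 45 far peaks (2.87%, against 0.745% of peaks 3 to 50 kb from a gene and 0.187% of protein-coding genes), 24 at Prox1, 20 at Nr2f2 and 1 at Hey1, and all 3 genes are also in the previous list. The hematopoietic list had 16 (1.02%, against 0.266% and 0.183%). Zfpm1, a GATA cofactor of erythroid and megakaryocytic cells, had 7 far peaks at 76908 to 103825 bp and no 15000-EMP peak within 3 kb of its start. It is in the list of developmental factors too. The table paired these 7 with Zfp469, and all 7 lay inside Zfp469 in RefSeq. Irf8, a factor of monocytes, had 6 and a marked start, and Csf3r, the receptor of granulocyte colony-stimulating factor, had 3 and an unmarked start. The list of Wnt, Fgf, Bmp and Hedgehog pathway families had 14 (0.893%, against 1.25% and 0.466%), of which 8 were at Bmp7. It was drawn up by gene family and takes in Fgf12 (2) and Fgf14 (1), which are not secreted ligands. Neural adhesion and guidance genes had 10 (0.638%, against 1.49% and 0.558%). Ion channels and transmitter receptors had 6 (0.383%, against 2.13% and 1.02%), and protocadherins and cadherins 5 (0.319%, against 0.213% and 0.433%).

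The 5 peaks with the largest distances all lay inside long neuronal genes. At 1172487 and 1169337 bp from Dmac1 were 2 peaks in Ptprd, a receptor phosphatase of synapses, which lay 812 and 409 bp from a Ptprd transcript start. At 1041038 and 1038505 bp from 1700123O21Rik were 2 peaks in Rbfox1, a neuronal splicing factor, and at 914046 bp from Dio2 was 1 peak in Nrxn3, a neurexin, 1978 bp from a transcript start. The first 4 were overlapped by a 500-EMP peak and the fifth, 401 bp wide, was not.

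At the distance limit the nearest members stood at 50028 bp from Evl (2362 bp wide, inside Eml1, overlapped), 50083 bp from Fignl2 (1045 bp, inside Scn8a, not overlapped) and 50118 bp from Hey1, a Notch target (1338 bp, in no gene, not overlapped). The closest peaks left out stood at 49937 bp from Hnrnpa3, 49890 bp from Ctnna1 and 49786 bp from Usp6nl, and none was overlapped. At the width limit the widest members had 4913, 4893 and 4892 bp, and the narrowest peaks left out had 5021 bp near Gm20052, 5036 bp near the netrin receptor gene Unc5a and 5041 bp near Pax2. All 6 were overlapped.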

How the data were processed

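H3K27me3 and IgG CUT&RUN libraries of E10.5 EMPs were described by their GEO labels, which alone set the groups. Per the study's methods and processing notes, the authors aligned reads to mm10 with Bowtie2 version 2.2.1, used SAMtools version 1.9 and deepTools version 3.5.1, and called broad peaks on each H3K27me3 library separately, with IgG as control, with MACS2 version 2.1.2 at p-value thresholds of 0.01 (500 EMPs) and 0.05 (15000 EMPs). Their command listing names the other cell number's library under each threshold, and each deposited list was kept under its own label. Genes, locations and distances were added by the authors with ChIPpeakAnno. The deposited files used here hold coordinates, distances in bp and gene names, with no count, score or other signal per peak.

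Peak positions were taken from the peak lists, with starts made 1-based. Members were found with pandas 2.3.3 and numpy 2.4.6 under Python 3.11.15, figures were drawn with matplotlib 3.10.9, and second copies were searched with minimap2 2.31 against GRCm38.p6. An overlap was 1 bp or more. CpG windows and masked bases were read from that genome, with peaks under 200 bp extended to 200 bp. Gene positions came from GENCODE vM21 and RefSeq. Shares carry 95% Wilson intervals. Differences at equal width weight 4 width classes (limits 500, 1000 and 2000 bp) by the far peaks and carry 95% normal intervals from binomial variances. The overlap and difference code was tested on simulated data. With 1 library per group no test between groups was made. Depth is unknown from the files, whereas the study's reporting summary gives far fewer aligned reads for 500 EMPs. The named regions were the 8 largest clusters, the 5 widest, 5 farthest and 5 widest not overlapped peaks, 3 on each side of both limits, and the 15 genes with the most far peaks. The genes at transcript starts, in the host list and in the gene lists were named after their values were seen. The members, gene lists and comparisons were chosen with earlier results of these data known. IgG libraries, with no peak list here, were not analysed on their own. A result at a further transcript start is not reported here.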

Additional observations from a re-analysis of the deposited data

Results flagged for a closer look

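On the X chromosome 18 peaks of the 15000-EMP library met every other part of the rule. They were noted as data outside the main measurement and lay outside the comparisons because the rule takes chromosomes 1 to 19. Their median width was 358.5 bp, and 2 were overlapped by a 500-EMP peak.

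Domains wider than 5000 bp that met the rest of the rule numbered 32, likewise outside the comparisons. Their median width was 5758.5 bp and 30 were overlapped by a 500-EMP peak. The widest, chr2:172726450-172741828 with 15379 bp, lay 167828 bp from Tfap2c, a factor of trophoblast and germ cells, and 9 peaks of the 500-EMP list covered 9409 bp of it. The next lay near Fhitos (11151 bp), Six3 (10694 bp) and Hnrnpk (9267 bp). The IgG libraries had no peak list here to set beside either number.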

How the results depend on the processing

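With 1 library per group, replicates could not be left out, and no paired analysis was possible because no result compares replicates. Of 37 recomputed values, 20 moved by less than their interval or factor and 17 by more. A distance limit of 100 kb left 716 far peaks, and the difference in overlap with and without a CpG island window became -5.47 points (-11.9 to 0.942). The overlapped share was 2.87% where at least 50% had to be covered, 34.1% within 1 kb, and 27.4% with 1 peak per cluster. With 1 peak per cluster the differences from peaks 3 to 50 kb away and inside genes became -2.42 and -3.68 points (the first was 0.056 with all peaks and -0.061 at 100 kb), and the share with a marked nearest start 43.5%. That share was 43.0% at a limit of 1 kb and 71.8% where either flanking start counted. The CpG island share was 5.68% with 500 bp windows, 55% G+C and a ratio of 0.65, and 18.1% without peaks in GENCODE protein-coding genes. Developmental transcription factors had 11.3% of far peaks by the authors' table and 26.7% where either flanking start counted. The share overlapping any GENCODE gene, 47.3%, was 36.1% for protein-coding genes, 31.3% without Gm20388 and Fgfr2, and 33.0% by RefSeq. The alternatives without protein-coding hosts, without second copies or masked peaks, with either flanking start, with RefSeq and without the 2 long models were added after the data had been seen. Beyond these constructions, the cause of each shift was not tested. Depth, instrument and p-value cutoff differ between the lists, so an absent 500-EMP peak does not show an absent mark.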
